A study of Mus musculus with 6 samples.

Results

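The genes described here are 9 that encode enzymes, carriers and receptors of dopamine. They are the synthesis enzymes Th, Ddc and Dbh, the transporters Slc18a2 and Slc6a3, and the receptors Drd2, Drd3, Drd4 and Drd5. They were found by their symbol in the platform annotation, among annotated features that carry a single symbol, and the feature with the highest mean over the 6 arrays was kept where a gene had more than 1. All 9 were found, among 21507 genes in all. The dopamine receptor gene Drd1 is not among the 9 and is given below with the receptor partners and effectors. Hypothalamic RNA of 8-week-old male mice on a chow diet was measured on Affymetrix arrays, with 3 arrays labeled Slugfl/fl and 3 labeled Slugfl/fl;LepRCre/Cre (ΔLepR). Both groups carried the floxed alleles of Slug (Snai2), a transcriptional repressor, and differed in Cre, which was driven from the leptin receptor gene on both alleles, so that Slug was to be deleted in leptin receptor-expressing cells. The Cre line is named leptin receptor-CreERT2 in the labels, whereas the study's methods describe a LepRb-Cre knockin. No arrays of mice with Cre alone were analysed here. The labels do not state whether an array holds 1 mouse or several, so the p-values measure the spread between arrays.

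Dopamine is made from tyrosine in a pair of steps. Tyrosine hydroxylase (Th), the rate-limiting enzyme, makes L-DOPA, and aromatic L-amino acid decarboxylase (Ddc) makes dopamine, which the vesicular monoamine transporter (Slc18a2) packs into vesicles, the dopamine transporter (Slc6a3) takes back after release, and dopamine beta-hydroxylase (Dbh) turns into noradrenaline in cells that hold it. In the hypothalamus, tuberoinfundibular neurons of the arcuate nucleus release dopamine into the portal blood, where it holds back prolactin secretion through Drd2 on pituitary lactotrophs. Other hypothalamic cell groups also make dopamine, and some nerve terminals in the region come from cell bodies elsewhere, whose mRNA lies outside the dissected tissue.

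The values are log2 signals as deposited, and their number, 3 arrays in each group, limits the precision of every value below. The deleted gene went against the labels. Snai2 read 3.79, 4.23 and 4.23 in the arrays labeled Slugfl/fl and 10.36, 9.68 and 10.49 in those labeled ΔLepR, a difference of 6.09 (SE 0.21; limma, adjusted p = 1.56e-06). Which part of the gene its probes read was not analysed here. The cause of the high Snai2 values was not tested. An exchange of the group labels, which would turn every direction below, was not tested either, so all directions are given as labeled. Lepr, the leptin receptor gene, read 4.04, 3.72 and 3.96 against 4.55, 4.16 and 4.42, which was 1.38-fold higher in the arrays labeled ΔLepR and past the study's threshold (limma, unadjusted p = 0.00502, adjusted p = 0.743), with every array labeled ΔLepR above every array labeled Slugfl/fl. That threshold is an unadjusted p under 0.05 with a mean more than 25% higher or more than 25% lower, and 2.01% of all 21507 genes passed it in either direction, while 0.0139% passed an adjusted p of 0.05 (Benjamini-Hochberg over all genes).

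The hypothalamus label was checked on 12 measured marker genes, of which 9 lay above the overall gene median of 4.18 in at least 1 group and 3 (Pomc, Nr5a1 and Rax) below it in both. The neuropeptide genes Avp (8.99 to 9.86), Pmch (9.29 to 9.77) and Oxt (8.00 to 8.45) were high in every array. Single arrays stood apart for markers of neighboring tissue. Array 1 labeled Slugfl/fl was highest for 13 of 19 hindbrain and spinal cord genes, with a mean of 3.09 against 2.48 to 2.57 in the other arrays, including the Hox gene Hoxa5 (4.33 against 1.92 to 2.44) and the glycine transporter Slc6a5 (5.51 against 3.48 to 3.60). All of these genes but Slc6a5 had means below the overall gene median in both groups. For some the lead was small, as for Hoxd8 (3.08 against 2.79 to 3.04). Array 3 labeled Slugfl/fl was highest for 9 of 10 thalamic genes. Array 1 labeled ΔLepR was high for prolactin, Prl, at 5.16 against 2.60 to 3.01 in the other arrays, and for growth hormone, Gh, at 3.79 against 2.76 to 3.11. It was the highest array for 4 of the 9 measured pituitary genes, and the lowest for Tshb (3.88). The hindbrain and thalamic lists were chosen after these values had been seen. In bulk tissue such as this, fewer cells of a type and less RNA per cell cannot be told apart.

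None of the 9 dopamine genes passed the study's threshold, against 2.01% of all genes, and none passed an adjusted p of 0.05. Their mean was higher in the arrays labeled ΔLepR for 5 genes and lower for 4, with log2 differences from -0.56 (Slc6a3) to 0.26 (Ddc) and a median of 0.08, beside a median of 0.00 over all genes. The 95% interval of the difference covered 0 for 8 of the 9. Only Drd4 had an interval that lay wholly inside the study's fold limits, so that for the other 8 genes a change of the size the study counts was not excluded by these arrays. Drd4 itself read below the overall gene median in both groups, where background can compress differences, so its interval does not exclude such a change either. For 1 gene, Slc18a2, the groups did not overlap, whereas 11.5% of all genes had groups that did not overlap. For each single gene a two-sided exact permutation test over the 6 arrays was also run, which cannot go below p = 0.10 with 3 arrays against 3.

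**Figure D1:**
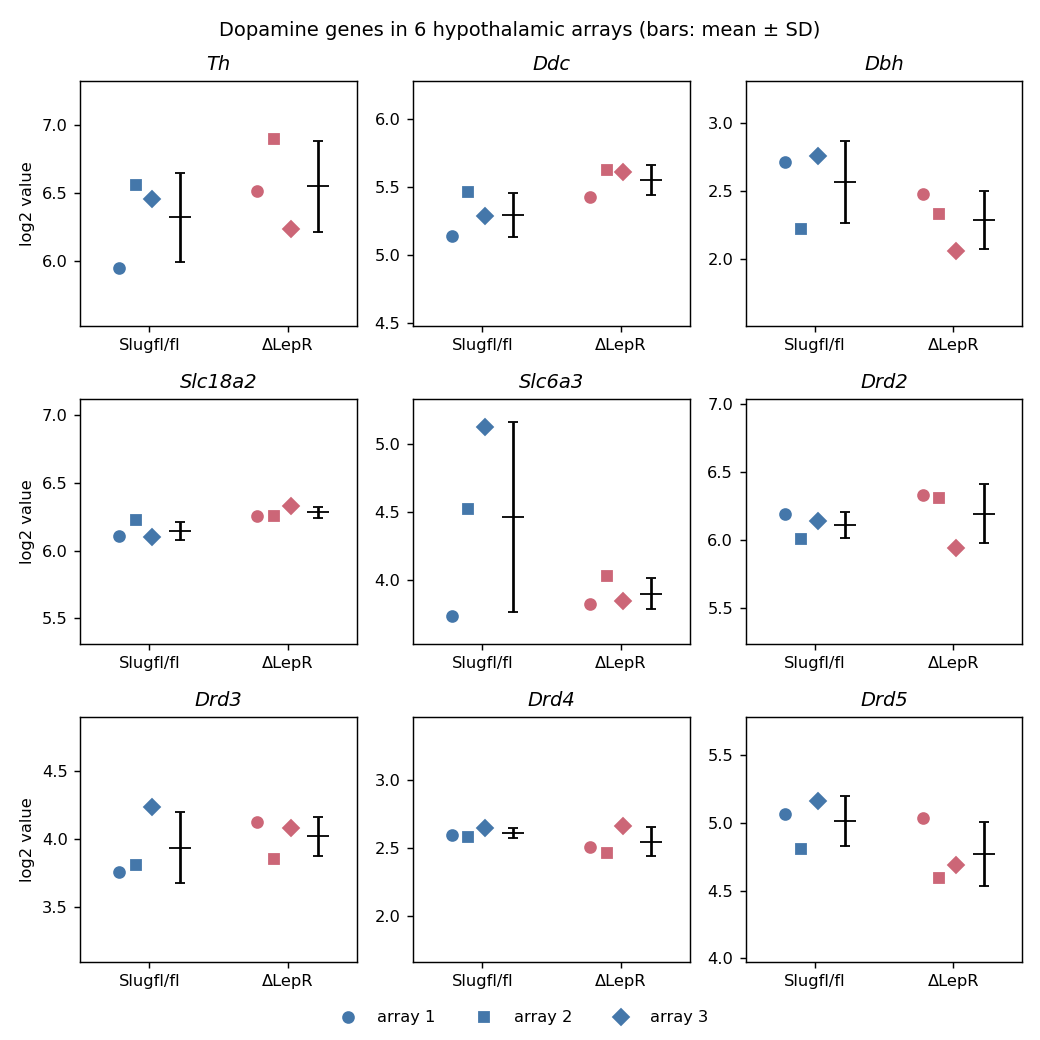
Log2 value of each dopamine gene (vertical axis) in the 3 arrays labeled Slugfl/fl (blue) and the 3 labeled ΔLepR (red), with the mean and SD of each group as a bar and the array number as the symbol. The vertical axes all span the same log2 range, and the wide spread of Slc6a3 in the arrays labeled Slugfl/fl (SD 0.70) and the separation of the groups for Slc18a2 alone can be read from it.

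The letters near the starts used for 4 of these genes are shown for the following reasons. Slug binds E2 boxes (CACCTG, or CAGGTG on the other strand). The cAMP response element of Th is among the best-known control elements of this pathway. The letters come from RefSeq (GRCm38.p6), which gave a window of 250 bases before and 50 after the start for all 9 genes. Matches to the E2 box, the cAMP response element (TGACGTCA) and the NBRE of Nr4a nuclear receptors (AAAGGTCA, or TGACCTTT on the other strand) are in capitals, and the sequences run 5′ to 3′ on the strand of the gene.
Th, chr7:142899996-142900245, minus strand: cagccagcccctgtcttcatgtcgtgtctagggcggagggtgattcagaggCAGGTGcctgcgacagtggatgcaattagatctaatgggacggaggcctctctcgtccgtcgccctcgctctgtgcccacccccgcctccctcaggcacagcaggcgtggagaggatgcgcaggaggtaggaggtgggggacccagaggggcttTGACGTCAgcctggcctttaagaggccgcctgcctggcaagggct
Slc6a3, chr13:73536497-73536746, plus strand: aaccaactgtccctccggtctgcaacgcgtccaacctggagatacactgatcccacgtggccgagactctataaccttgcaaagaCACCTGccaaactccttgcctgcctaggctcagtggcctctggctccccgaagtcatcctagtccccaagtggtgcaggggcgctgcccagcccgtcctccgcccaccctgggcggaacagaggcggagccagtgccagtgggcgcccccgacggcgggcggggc
Slc18a2, chr19:59260863-59260892, plus strand: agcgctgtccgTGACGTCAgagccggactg
Ddc, chr11:11898199-11898228, minus strand: gctacacgcctTGACCTTTataccagcaga

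An E2 box was found in the windows of 2 of the 9 genes, Th (beginning 199 bases before the start) and Slc6a3 (165 bases before), and in those of 22.6% of all 27025 genes. For Slc6a3 the start is the one used for the window. The annotated gene begins further upstream, at chr13:73536128, so this box lies inside the gene as annotated. Mean signal in the arrays labeled ΔLepR was higher for Th and lower for Slc6a3, and neither passed the threshold. The cAMP response element was found in Th (45 bases before the start) and in Slc18a2 (4 bases before, so that it spans the start), and in 2.03% of all genes. The NBRE was found in Ddc alone of the 9 (73 bases before the start) and in 1.70% of all genes. The motifs do not overlap one another in these sequences, and a match is a description of the letters, not a site of binding.

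Th, whose enzyme sets the rate of synthesis, did not differ beyond the spread of the arrays. It read 5.95, 6.56 and 6.46 in the arrays labeled Slugfl/fl and 6.51, 6.90 and 6.23 in those labeled ΔLepR. The groups overlapped, with array 1 labeled Slugfl/fl the lowest of all 6 and array 2 labeled ΔLepR the highest. The means were 6.32 ± 0.33 and 6.55 ± 0.33 (SD, n = 3 each), a log2 difference of 0.23 (SE 0.19, 95% interval -0.20 to 0.66, limma, adjusted p = 0.905, exact permutation p = 0.50). The difference was 0.04 without array 1 labeled Slugfl/fl, the array with hindbrain signal, and 0.05 without array 2 labeled ΔLepR. It was 0.35 without array 2 labeled Slugfl/fl and 0.39 without array 3 labeled ΔLepR, with no call under any of these.

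Ddc, which follows Th in the pathway and also serves serotonin neurons, came nearest to a call among the synthesis enzymes. Its values were 5.14, 5.47 and 5.29 in the arrays labeled Slugfl/fl against 5.43, 5.62 and 5.61 in those labeled ΔLepR. Array 2 labeled Slugfl/fl lay just above the lowest array labeled ΔLepR, and the groups overlapped by that array. The means of 5.30 ± 0.16 and 5.55 ± 0.11 (SD, n = 3 each) differed by 0.26 (SE 0.11, 95% interval 0.00 to 0.51), or 1.19-fold, below the fold limit. It was the single gene of the 9 with an unadjusted limma p under 0.05 (p = 0.0487, adjusted p = 0.839), where 5.85% of all genes had one, and the exact permutation test gave p = 0.20. Without array 2 labeled Slugfl/fl, Ddc passed the study's threshold with a difference of 0.34 (limma, unadjusted p = 0.0198, adjusted p = 0.859).

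Dbh, the enzyme of noradrenaline synthesis and a marker of noradrenergic cell bodies, read low in every array. Its values were 2.71, 2.21 and 2.76 in the arrays labeled Slugfl/fl and 2.48, 2.33 and 2.06 in those labeled ΔLepR, under the overall gene median in each. The groups overlapped, and the means of 2.56 ± 0.30 and 2.29 ± 0.21 (SD, n = 3 each) differed by -0.28 (SE 0.16, 95% interval -0.64 to 0.09, limma, adjusted p = 0.864, exact permutation p = 0.30). Without array 2 labeled Slugfl/fl, the lowest of its group, Dbh passed the study's threshold at -0.45 (limma, unadjusted p = 0.0112, adjusted p = 0.859). The difference was -0.18 without array 3 labeled Slugfl/fl and -0.16 without array 3 labeled ΔLepR. The mean over the 4 measured markers of noradrenergic neurons, Dbh among them, ran from 2.68 to 3.01 in the arrays labeled Slugfl/fl and from 2.57 to 2.81 in those labeled ΔLepR. The part of those cells in the Dbh values was not tested.

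Slc18a2, the vesicular transporter that dopamine, noradrenaline, serotonin and histamine neurons share, was the gene with the least spread among the enzymes and transporters. It read 6.11, 6.22 and 6.10 in the arrays labeled Slugfl/fl and 6.26, 6.26 and 6.33 in those labeled ΔLepR. Every array labeled ΔLepR was above every array labeled Slugfl/fl, by a small margin. The means were 6.14 ± 0.07 and 6.28 ± 0.04 (SD, n = 3 each), a difference of 0.14 (SE 0.09, 95% interval -0.07 to 0.34, limma, adjusted p = 0.884), and the exact permutation p was 0.10, the smallest that 6 arrays allow. Leaving out each array in turn moved the difference only between 0.11 and 0.18. Hdc, the enzyme of histamine synthesis and one of the hypothalamic markers, was also higher in the arrays labeled ΔLepR and past the study's threshold (0.44, limma, adjusted p = 0.743), while Avp, on the same list of 12, was lower and past it (-0.46, limma, adjusted p = 0.773). No other gene of that list passed, which makes 16.7% of it beside 2.01% of all genes, and the part of histamine neurons in the Slc18a2 values was not tested.

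Slc6a3, the dopamine transporter and the most specific marker of dopamine neurons among the 9, had the largest difference and the widest spread of them. It read 3.73, 4.52 and 5.13 in the arrays labeled Slugfl/fl and 3.82, 4.03 and 3.84 in those labeled ΔLepR. Arrays 2 and 3 labeled Slugfl/fl were above all others, while array 1 was the lowest of the 6, so the groups overlapped. The means of 4.46 ± 0.70 and 3.90 ± 0.11 (SD, n = 3 each) differed by -0.56, a level 32.2% lower in the arrays labeled ΔLepR (SE 0.28, 95% interval -1.18 to 0.06, limma, unadjusted p = 0.0701, adjusted p = 0.841, exact permutation p = 0.40). An SD as large as that of Slc6a3 in the arrays labeled Slugfl/fl was reached by 0.079% of the 21507 genes, and one as large as that in the arrays labeled ΔLepR by 55.8%.

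The Slc6a3 difference depended on which array labeled Slugfl/fl was kept. Without array 1, which carried the hindbrain signal, it was -0.92 and past the study's threshold (limma, unadjusted p = 0.000525, adjusted p = 0.513). Without array 3, which was highest for the thalamic genes, it was -0.23 (limma, unadjusted p = 0.309, adjusted p = 0.893). With array 1 of both groups left out, an alternative chosen after seeing the data, it was -0.89 (limma, unadjusted p = 0.00176, adjusted p = 0.685). The mean over the 10 thalamic genes was 4.38, 4.63 and 5.17 in the arrays labeled Slugfl/fl and 4.69, 4.53 and 4.77 in those labeled ΔLepR, in the same order as Slc6a3 within the first group but not in the second. The mean over the 9 measured genes of the tuberoinfundibular list ran from 5.09 to 5.38 in the arrays labeled Slugfl/fl and from 5.15 to 5.30 in those labeled ΔLepR. That list shares Slc6a3, Th, Ddc and Slc18a2 with the dopamine genes, so its mean is no separate measure of those neurons. On that list 1 gene passed the study's threshold, Gad1, an enzyme of GABA synthesis, at -0.45 (limma, adjusted p = 0.785), or 11.1% of the list beside 2.01% of all genes. The mean over 10 markers of midbrain dopamine neurons ran from 4.26 to 4.31 and from 4.23 to 4.33, with 7 of the 10 below the overall gene median in both groups. The part of neighboring tissue in the Slc6a3 values was not tested.

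**Figure D2:**
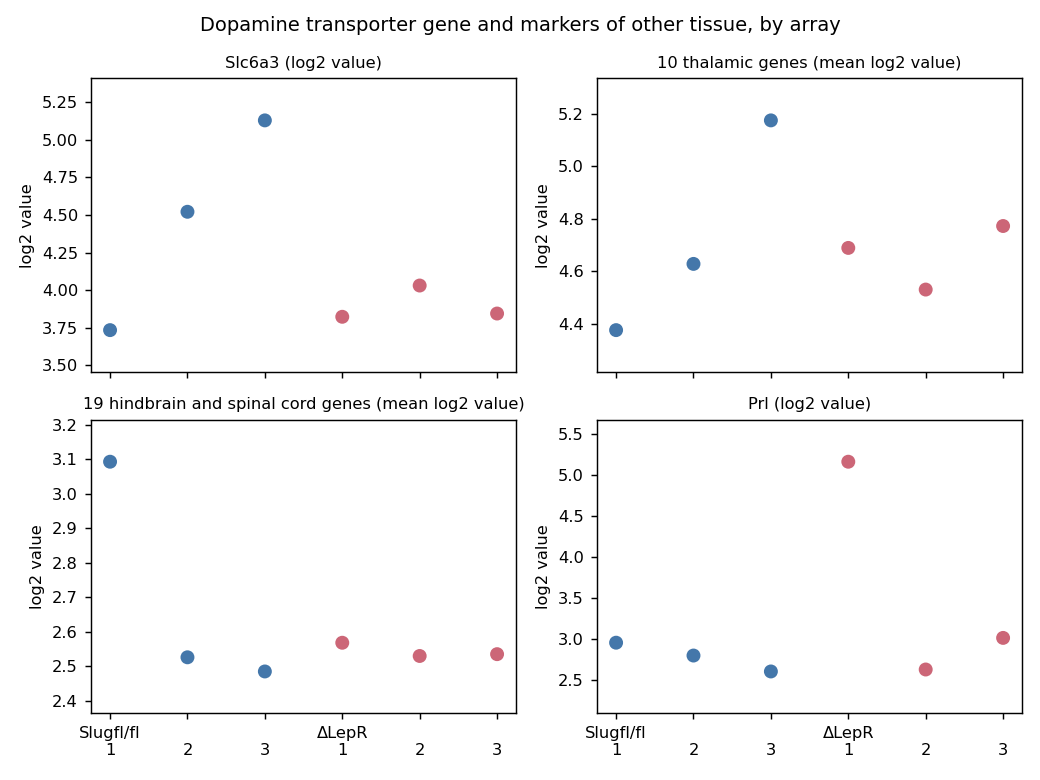
Log2 value of Slc6a3 and of Prl, and mean log2 value of 10 thalamic and 19 hindbrain and spinal cord genes, in each array labeled Slugfl/fl (blue) and ΔLepR (red). Each panel has its own vertical scale. Array 1 labeled Slugfl/fl is lowest for Slc6a3 (3.73) and highest for the hindbrain genes (3.09), array 3 labeled Slugfl/fl is highest for Slc6a3 (5.13) and the thalamic genes (5.17), and array 1 labeled ΔLepR is highest for Prl (5.16).

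Drd2, an inhibitory receptor found on dopamine neurons themselves, on striatal neurons and on pituitary lactotrophs, had close means. It read 6.19, 6.01 and 6.14 in the arrays labeled Slugfl/fl and 6.33, 6.31 and 5.94 in those labeled ΔLepR. The groups overlapped, since the third array labeled ΔLepR was the lowest of all. The difference was 0.08 (SE 0.12, 95% interval -0.20 to 0.36, limma, adjusted p = 0.953, exact permutation p = 0.60) between means of 6.11 ± 0.09 and 6.19 ± 0.22 (SD, n = 3 each). Array 1 labeled ΔLepR, the one high in Prl, was the highest for Drd2, and without it the difference was 0.01. Without array 2 labeled Slugfl/fl or array 2 labeled ΔLepR it was 0.03, and without array 3 labeled ΔLepR, the lowest, it was 0.21. The mean over the 9 measured pituitary genes, Drd2 among them, was 3.62 in that array and 3.26 to 3.47 in the others. Without Prl the mean was 3.42 in that array and 3.54 in array 1 labeled Slugfl/fl, where Cga was highest (3.68), although Gh was also highest in array 1 labeled ΔLepR. The part of pituitary tissue in the Drd2 values was not tested.

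Drd3, an inhibitory receptor best known from the islands of Calleja and the ventral striatum, read 3.76, 3.81 and 4.23 in the arrays labeled Slugfl/fl and 4.12, 3.86 and 4.08 in those labeled ΔLepR. The values of the groups lay among each other, and the difference was 0.08 (SE 0.14, 95% interval -0.23 to 0.40, limma, adjusted p = 0.956, exact permutation p = 0.80). It was -0.003 without array 1 labeled Slugfl/fl and 0.23 without array 3 of that group, with no call in either. The mean over 8 measured striatal markers ran from 5.78 to 5.82 in the arrays labeled Slugfl/fl and from 5.80 to 5.87 in those labeled ΔLepR.

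Drd4, an inhibitory receptor abundant in the pineal gland and the retina, was the most even of the receptors. Its values were 2.59, 2.58 and 2.65 in the arrays labeled Slugfl/fl and 2.51, 2.46 and 2.66 in those labeled ΔLepR. The groups overlapped, and the difference was -0.06 (SE 0.10, 95% interval -0.28 to 0.15, limma, adjusted p = 0.953, exact permutation p = 0.40). Both bounds of that interval fell short of the study's limits of a 25% rise and a 25% fall. Dbh, Drd3 and Drd4 were the 3 genes with a group mean below that median on both sides of the comparison, and a low array signal holds a share of background that compresses differences.

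Drd5, a stimulatory receptor of the D1 class, had a lower mean in the arrays labeled ΔLepR. It read 5.06, 4.81 and 5.16 in the arrays labeled Slugfl/fl and 5.03, 4.59 and 4.69 in those labeled ΔLepR. Array 1 labeled ΔLepR lay within the range of the other group, and the means of 5.01 ± 0.18 and 4.77 ± 0.23 (SD, n = 3 each) differed by -0.24 (SE 0.14, 95% interval -0.56 to 0.07, limma, adjusted p = 0.860, exact permutation p = 0.20). The difference was -0.37 without array 1 labeled ΔLepR and -0.15 without array 2 of that group, short of the study's threshold in both. Drd5 was the only gene of the 9 with a second annotated feature. That feature read 2.84, 2.94 and 3.13 against 3.26, 2.95 and 2.83, a difference of 0.05, so the features of this gene disagreed in sign. With the mean of both features in place of the brighter one, the difference was -0.10.

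**Figure D3:**
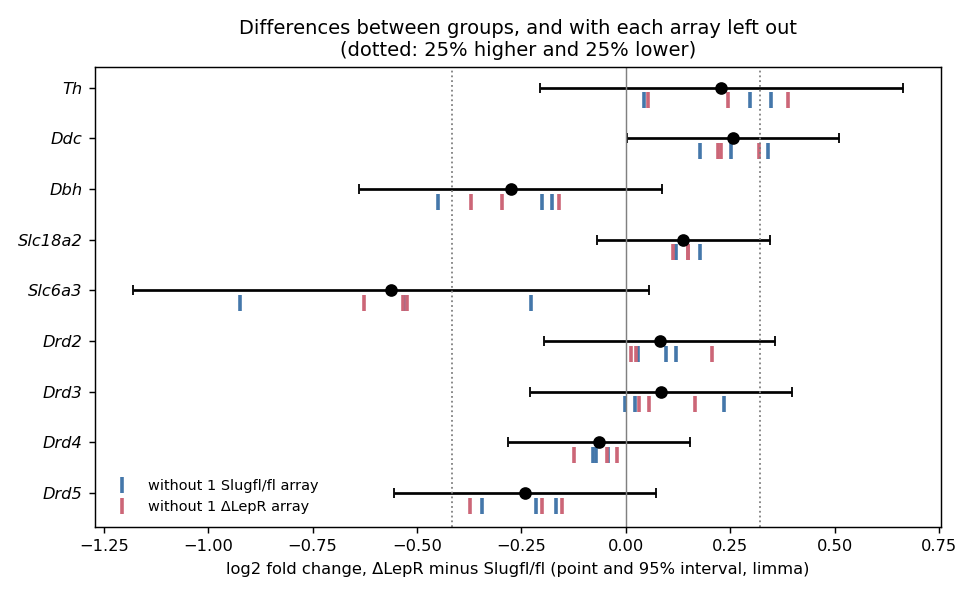
Log2 difference (horizontal axis, ΔLepR minus Slugfl/fl as labeled) of each dopamine gene with its 95% limma interval, and as ticks the difference with 1 array left out in turn (blue, an array labeled Slugfl/fl; red, one labeled ΔLepR). Dotted lines mark 25% higher and 25% lower. The interval of Drd4 alone lies between them, for a gene that read below the overall gene median in both groups. The ticks of Slc6a3 spread from -0.92 to -0.23.

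The other synthesis enzymes and the transporters were set against Th across the 6 arrays, as 4 relations. Dbh marks noradrenergic cells and Slc6a3 dopamine neurons, so these genes are not the set of a single cell type. Th and Ddc gave Pearson's r = 0.65 (exact permutation p = 0.164, adjusted p = 0.60 over the 4) and Spearman's rho = 0.66 (exact permutation p = 0.175, adjusted p = 0.658). Without the pair of arrays farthest from the median of Th, array 1 labeled Slugfl/fl and array 2 labeled ΔLepR, r was -0.63. That value comes from fewer arrays and a narrower range of Th, so it cannot show what the relation rested on. Th and Slc6a3 gave r = 0.29 (exact permutation p = 0.572) and rho = 0.49 (exact permutation p = 0.356), Th and Slc18a2 r = 0.34 (exact permutation p = 0.525) and rho = 0.26 (exact permutation p = 0.658), and Th and Dbh r = -0.28 (exact permutation p = 0.60) and rho = -0.26 (exact permutation p = 0.658). With the group means taken off, r as a description was 0.67 for Slc6a3, 0.59 for Ddc, 0.03 for Slc18a2 and -0.09 for Dbh. Without the same pair of arrays, r was 0.36 for Slc6a3, -0.52 for Slc18a2 and 0.46 for Dbh. None of the 4 had a p under 0.05, before or after adjustment (adjusted permutation p = 0.60 for each r and 0.658 for each rho). Th was also compared with the 10752 genes brighter than the overall gene median, of which 29 had r above 0.95. Symbols of predicted genes, clones, small RNAs and olfactory or vomeronasal receptors were then set aside. Of the genes left, the 3 with the highest r were the adaptor gene Grb10 (r = 0.99), the rhomboid-like gene Rhbdl1 (r = 0.99) and the glutathione peroxidase gene Gpx1 (r = 0.99). With 6 arrays that share RNA quality and dissection within each array, these are descriptions only.

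The genes around the 9 were read from 6 lists with 67 genes in all, of which 49 were measured. In all, 2 of the 49 (4.08%, beside 2.01% of all genes) passed the study's threshold, both higher in the arrays labeled ΔLepR, and the median difference was 0.02. The first was Aldh1b1, a mitochondrial aldehyde dehydrogenase, on the list of breakdown enzymes. It read 3.46, 3.53 and 3.46 in the arrays labeled Slugfl/fl and 4.02, 4.03 and 3.96 in those labeled ΔLepR, so the groups stood clear of each other. The difference was 0.52 (SE 0.09; limma, adjusted p = 0.363), and the means, 3.48 and 4.01, lay below the overall gene median. The other breakdown genes named, Maoa, Maob and Aldh1a1, of which the first pair encode the monoamine oxidases, differed by -0.06, 0.06 and 0.11, with overlapping groups and no call.

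The second was Slc29a4, the plasma membrane monoamine transporter, a low-affinity carrier of dopamine and serotonin. It read 5.68, 5.32 and 5.58 in the arrays labeled Slugfl/fl and 5.90, 6.002 and 5.75 in those labeled ΔLepR, again without overlap. The difference was 0.36 (SE 0.12; limma, adjusted p = 0.837), and it did not pass without array 2 labeled Slugfl/fl (0.25) or array 2 labeled ΔLepR (0.30), nor by the test that the study's methods name. The direction was opposite to that of the mean of Slc6a3, the high-affinity transporter, whose groups overlapped. A relation between these genes was not tested. Slc18a1, Slc6a2 (the noradrenaline transporter) and Slc22a2 did not pass, at -0.25, -0.15 and 0.10.

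None of the 6 measured genes for making, recycling or regulating tetrahydrobiopterin, the cofactor of Th, passed. Qdpr, which regenerates it, read 6.22, 6.17 and 6.30 in the arrays labeled Slugfl/fl and 5.99, 5.99 and 5.99 in those labeled ΔLepR, lower in every array but by only -0.24 (limma, adjusted p = 0.839). Gchfr, whose product regulates the synthesis, and the synthesis enzymes Pts and Spr differed by 0.25, -0.23 and -0.16, with overlapping groups. Without array 2 labeled ΔLepR, Gchfr (0.34) and Pts (-0.42) passed and Spr was -0.35, whereas Pts was -0.02 and Spr -0.03 without array 1 of that group. Of 13 measured transcription factors of dopamine neurons none passed, and the groups of 1 did not overlap, where 11.5% of all genes had such groups. That gene was Pax6, at 4.22, 4.15 and 4.65 against 4.10, 4.12 and 4.11 (-0.23, and -0.08 without array 3 labeled Slugfl/fl). Otp, Pitx3 and Isl1 differed by 0.19, -0.14 and 0.13, and with single arrays left out ran from 0.06 to 0.30, from -0.26 to -0.06 and from 0.02 to 0.21. None of the 17 measured receptor partners and effectors passed, among them Gnai3 (-0.22), an inhibitory G protein subunit, the adenylyl cyclase gene Adcy5 (0.16), the arrestin gene Arrb2 (0.16) and the receptor gene Drd1 (0.18). Without array 1 labeled ΔLepR, Drd1 passed at 0.3242, just beyond the fold limit of 0.3219 in log2. On the list of other catecholamine receptors with the adrenaline enzyme Pnmt, 3 genes were measured and none passed: Pnmt (-0.08), Adra1b (-0.25) and Adra2c (0.22). Without array 3 labeled ΔLepR, Adra1b (-0.53) and Adra2c (0.33) passed, and without array 1 of that group Adra1b was -0.01. Of the genes here that passed with an array left out, Gchfr, Drd1 and Adra2c had means below the overall gene median in both groups.

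**Figure D4:**
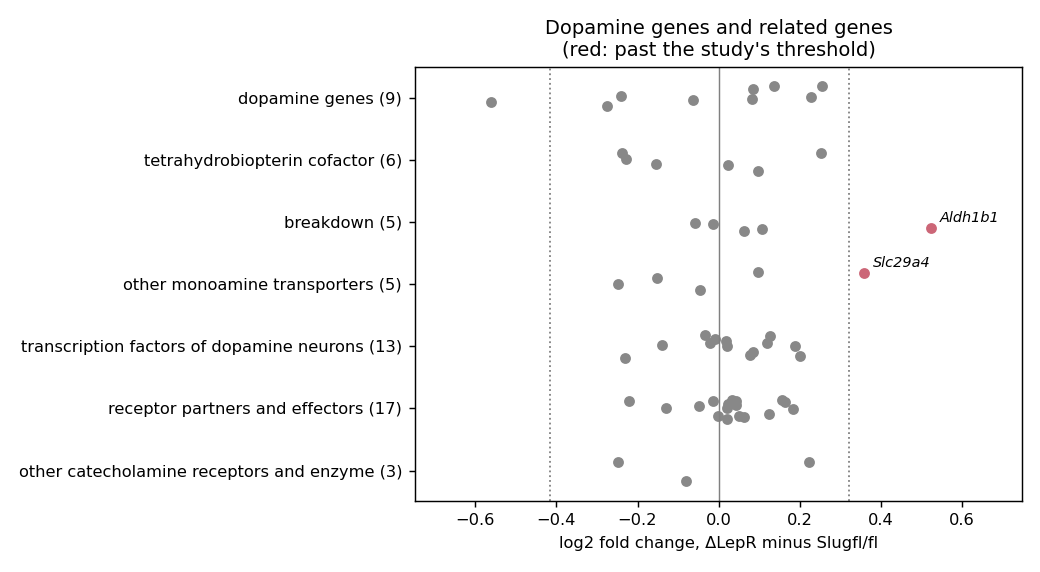
Log2 difference (horizontal axis, ΔLepR minus Slugfl/fl as labeled) of the 9 dopamine genes and of the measured genes of 6 related lists, with 1 point a gene and the number measured in parentheses. The vertical scatter within a list has no meaning. Only Aldh1b1 (0.52) and Slc29a4 (0.36), in red, passed the study's threshold, and dotted lines mark 25% higher and 25% lower.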

How the data were processed

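Hypothalamic RNA was hybridized to 1 array per sample. The log2 values were used as deposited by the authors in 1 table of the series. The submitters' processing notes name MAS5, with no role or version, and the log base was inferred from the range of 0.90 to 12.43. Array medians were 4.04 to 4.07, and no pair of arrays was identical. Array scans were not used here, so probes above background could not be told from others, and the age is 8 weeks in the labels, which was used, though the study's methods give another.

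Of 24663 features, 21925 carried a single symbol in the platform annotation, 1920 none and 818 several, and 21832 matched RefSeq by Entrez ID. Keeping the feature with the highest mean per gene left 21507 genes. Groups were compared with limma 3.58.1 in R 4.3.3 (lmFit and eBayes) and Benjamini-Hochberg adjustment over all genes, and single genes with exact permutation tests in scipy 1.17.1. The scripts were tested on simulated data. The study's threshold (p under 0.05, more than 25% higher or lower) was applied to limma's p, since 3 arrays give a poor variance for a single gene.

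The text names all 9 dopamine genes, Snai2, Lepr, up to 4 genes with the smallest p of each related list and 3 genes like Th. Those 3 had the highest r to Th after the symbols set aside above. The genes and lists were chosen with earlier results of these data known; the hindbrain and thalamic lists, and the alternative without array 1 of each group, were added after seeing the values. Marker genes outside these were chosen after their values were seen. Genes of a list that were not measured were not analysed here. Same-numbered arrays did not deviate together (correlations of -0.00, -0.01 and -0.06), so the replicate number was no term of the model. The alternatives were Student's test, a trended robust prior, quantile normalization, median centering, a filter on dim genes, the mean of features per gene, array weights, the replicate block, a lower-side ratio of 0.8 and each array left out.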

Additional observations from a re-analysis of the deposited data

How the results depend on the processing

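The count of dopamine genes past the study's threshold was 0, and 1 (Slc6a3, -0.56, unadjusted p = 0.028 and adjusted p = 0.868 by limma) with the replicate block, which changed the call of no other dopamine gene. It was 1 without array 1 of each group and ran from 0 to 2 when single arrays were left out: 1 (Slc6a3) without array 1 labeled Slugfl/fl and 2 (Ddc and Dbh) without array 2 of that group. The number past an adjusted p of 0.05 was 0 under every alternative. The deviations of same-numbered arrays were close to uncorrelated over all genes, which cannot exclude a shared day or litter. The count of related genes was 2, and 1 with Student's test, which lost Slc29a4, and 1 without dim genes, which left out Aldh1b1. It ran from 1 (without array 2 labeled Slugfl/fl) to 4 (without array 3 labeled ΔLepR) with single arrays left out.

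The difference reversed for Drd3 without array 1 labeled Slugfl/fl (-0.003) and without array 1 of each group (-0.0553), for Aldh1a1 without array 2 labeled Slugfl/fl (-0.0169) or array 1 labeled ΔLepR (-0.009), and for Maob without array 3 labeled Slugfl/fl (-0.0053); the cause was not tested. With single arrays left out, the range was -0.003 to 0.23 for Drd3, -0.0169 to 0.20 for Aldh1a1 and -0.0053 to 0.13 for Maob. Quantile normalization and median centering changed no direction among the dopamine genes.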
